A study of Mus musculus with 2 samples.

Results

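Transcription factors that give somites their identity and their front-to-back polarity were followed in single cells of mouse somitic gastruloids. The genes were the 10 rows with the symbols Meox1, Meox2, Tcf15, Pax3, Uncx, Tbx18, Foxc1, Foxc2, Foxd1 and Dmrt2, out of 32285 genes in the count tables, and all 10 were found once in both libraries. A gastruloid is an aggregate of embryonic stem cells that forms embryo-like cell types in culture. Both libraries came from the E14 triple reporter line, in which the endogenous Zeb2 gene carries an HA-FKBP12F36V degron tag, so the control carries it too. The small molecule dTAG-13 directs a protein with this tag to degradation, and Zeb2 is a zinc-finger transcriptional repressor. Aggregates of 300 cells received 3 µM CHIR99021, an activator of Wnt signalling, from 48 h and were placed in 10% Matrigel at 96 h. One group was not treated further, and the other was given 100 nM dTAG-13 at 72 and 96 h. The control is labelled untreated but the series text mentions DMSO, and the sources used here do not give the time of harvest. About 32 gastruloids were pooled into 1 library per group, so no difference between the groups has a replicate check.

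Somites are the paired blocks of mesoderm that later form vertebrae, skeletal muscle and dermis. They bud off from the presomitic mesoderm, where Tbx6 is expressed and where oscillating Notch signals and Mesp2 set the next boundary. Cells that leave the presomitic mesoderm switch on the homeobox gene Meox1 and the basic helix-loop-helix factor Tcf15 (paraxis), and each somite is divided into a rostral part marked by Tbx18 and a caudal part marked by Uncx. The comparison asks how these genes are expressed when Zeb2 can be degraded.

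Cells were kept when at least 1000 genes were detected and at most 10% of the unique molecular identifiers (UMIs) were mitochondrial. After cells with the highest doublet scores were removed as well, 6231 untreated and 6688 dTAG-13 cells were left. They held 140019633 and 151601709 UMIs, with a median of 20073 and 20207 UMIs per cell. The libraries shared 10 cell barcodes among the kept cells. Levels are UMIs summed over the cells named and given as CPM, the UMIs of a gene per 1e+06 UMIs of all genes. Intervals are 95% exact Poisson intervals for CPM and Clopper-Pearson intervals for shares of cells, and cover counting error only. A log2 ratio has a prior of 1 CPM added on both sides, and its interval, the exact conditional interval of both counts, has no prior. For genes near or below 1 CPM the ratio therefore understates the change and can lie nearer to 0 than its interval.

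Positions are on GRCm38. The homeobox genes Meox1, Meox2 and Uncx lie on chromosome 11 (101877510 to 101894374, minus strand), chromosome 12 (37108540 to 37179534, plus strand) and chromosome 5 (139543494 to 139548179, plus strand). Tcf15 lies on chromosome 2 (152143561 to 152149097, plus strand), Pax3 on chromosome 1 (78101267 to 78197134, minus strand) and the T-box gene Tbx18 on chromosome 9 (87702800 to 87731260, minus strand). The forkhead genes Foxc1 and Foxd1 share chromosome 13, at 31806633 to 31812476 and at 98354242 to 98359305, both on the plus strand. Foxc2 is on chromosome 8 (121116171 to 121118895, plus strand) and Dmrt2, a gene of the doublesex-related family, on chromosome 19 (25672411 to 25678991, plus strand).

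The sequence before the start sites is shown for the polarity pair Uncx and Tbx18, which were not detected together in the thinned cells described here, and for Foxd1, which was detected with Uncx. Of the 10 genes 6 have an entry in the RefSeq promoter table (GRCm38.p6, 250 bases before to 50 after the start), and Meox1, Tcf15, Pax3 and Foxc2 have none. Each window was searched on both strands for the T-box core GGTGTGA, the RBPJ site TGGGAA of Notch signalling, the homeodomain core TAATTA, which reads the same on both strands, and the forkhead site TGTTTAC. Of 32851 promoters of the same length, 3.98%, 25.6%, 5.29% and 3.65% hold these letters. Capitals mark a match. The Uncx window holds TAATTA at 133 and 30 bases before the RefSeq start, and since it overlaps an exon of the GENCODE model only 30 bases around each match are shown. The Tbx18 window holds 1 RBPJ match on the opposite strand, 10 bases before the start. The Foxd1 window holds none of the 4 motifs.
Uncx, chr5:139543753-139543782, plus strand: gcgtgtcaggtaTAATTAgcaatcgatatg
Uncx, chr5:139543856-139543885, plus strand: ccgggccgcggcTAATTAtcgagagcttga
Tbx18, chr9:87731261-87731510, minus strand: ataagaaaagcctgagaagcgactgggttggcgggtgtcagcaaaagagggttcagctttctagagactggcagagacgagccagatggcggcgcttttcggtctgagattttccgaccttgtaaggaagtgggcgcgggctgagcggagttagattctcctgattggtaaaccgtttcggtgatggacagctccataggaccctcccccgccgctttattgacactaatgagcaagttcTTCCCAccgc
Foxd1, chr13:98353995-98354244, plus strand: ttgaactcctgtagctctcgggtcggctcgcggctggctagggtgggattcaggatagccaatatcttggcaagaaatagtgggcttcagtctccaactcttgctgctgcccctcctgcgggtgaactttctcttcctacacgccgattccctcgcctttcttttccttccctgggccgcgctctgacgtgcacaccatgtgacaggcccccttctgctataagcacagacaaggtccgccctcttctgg
A match is a description of the letters, and absence from a window says nothing about the factor.

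Over whole libraries all 10 genes were lower in the dTAG-13 library, and 8 of them were at least 1.5-fold lower with the prior, against 0.832% of all 19470 genes with at least 10 UMIs. The median log2 ratio was -0.71 for the 10 genes and 0.02 for all genes. Meox1 stood at 54.6 CPM (53.3 to 55.8) in untreated cells and at 33.1 CPM (32.2 to 34.0) after dTAG-13, which is -0.70 on the log2 scale. Tcf15 had nearly the same ratio, with 66.1 CPM (64.8 to 67.5) against 39.7 CPM (38.7 to 40.7) and -0.72. Pax3, a paired-box factor of the dermomyotome and of the dorsal neural tube, was at 26.1 CPM (25.2 to 26.9) against 15.3 CPM (14.7 to 15.9), a ratio of -0.73.

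The ratio of largest size with the prior was that of Dmrt2. Dmrt2, which is needed for the early myotome and for somite patterning, was at 6.02 CPM (5.62 to 6.44) against 2.20 CPM (1.97 to 2.45), a log2 ratio of -1.14. Uncx was at 2.67 CPM (2.41 to 2.96) against 0.844 CPM (0.704 to 1.00), and its interval ran from -1.96 to -1.37. Meox2, the paralogue of Meox1, was at 2.83 CPM (2.56 to 3.12) against 0.970 CPM (0.819 to 1.14), with an interval of -1.83 to -1.27.

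Tbx18 had the fewest UMIs of the 10 genes, with 136 in the untreated and 59 in the dTAG-13 library, or 0.971 CPM (0.815 to 1.149) against 0.389 CPM (0.296 to 0.502). Its ratio with the prior, -0.50, missed the 1.5-fold line, while its interval without the prior lay between -1.79 and -0.87. Foxc2 missed the line too, at 12.96 CPM (12.4 to 13.6) against 8.97 CPM (8.50 to 9.46), a ratio of -0.49 (-0.63 to -0.43). Foxc1 was at 22.9 CPM (22.1 to 23.7) against 13.9 CPM (13.3 to 14.5), a ratio of -0.68. Foxd1, known from kidney stroma and retina as well as somites, was at 6.28 CPM (5.88 to 6.71) against 3.56 CPM (3.27 to 3.88), also -0.68. With a prior of 5 CPM in place of 1, only 4 of the 10 genes passed the 1.5-fold line.

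In such sums, fewer cells of a type and less RNA per cell cannot be told apart. The share of Meox1-positive cells and the levels within them were therefore read separately. These levels are sums too, so the same limit holds for a gene found in few of these cells. To remove depth, each cell was thinned at random to 10000 UMIs, which left out 267 untreated and 286 dTAG-13 cells of lower depth. A cell with at least 2 Meox1 UMIs after thinning is called Meox1-positive. Such cells made up 674 of 5964 untreated cells, 11.3% (10.5 to 12.1), and 414 of 6402 dTAG-13 cells, 6.47% (5.88 to 7.10). In pluripotent-like cells, which serve as background, 1 of 348 untreated and 0 of 454 dTAG-13 cells met this rule. A count of 0 allows a share of up to 0.661% (3 cells of 454), and the upper end of the Clopper-Pearson interval is 0.809%. Median depths before thinning were 25812.5 and 26616.5 UMIs in the pluripotent-like cells and 20205.5 and 20665 UMIs in the Meox1-positive cells.

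Meox1-positive cells were checked against markers that leave out the 10 genes. Cells were clustered without them, and 62.8% of untreated and 65.0% of dTAG-13 Meox1-positive cells lay in a somite-like cluster, with 27.4% and 26.6% in an anterior presomitic mesoderm-like cluster. The 10 somite markers, led by Ptn and by the retinoic acid-making enzyme Aldh1a2, summed to 1283 and 1314 CPM, with none at 0. The 8 endoderm markers also moved between the libraries within these cells, from 61.8 to 134 CPM with none at 0, led by Epcam at 27.0 and 69.2 CPM. The 7 notochord markers summed to 21.1 and 41.7 CPM, of which 0 and 1 were at 0, led by Krt8. The 7 markers of lateral plate and cardiac mesoderm, where Tbx18 is also known, summed to 3.86 and 6.70 CPM, with 0 and 2 at 0. The 7 endothelial markers, of cells where Foxc genes are also known, summed to 23.8 and 16.3 CPM, with 1 and 4 at 0. The part of these cells in the results was not tested. The Zeb2 transcript was at 78.2 CPM (73.8 to 82.8) in untreated and 104 CPM (97.6 to 111) in dTAG-13 Meox1-positive cells, and since the tag acts on the protein, its transcript does not check the treatment.

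Within Meox1-positive cells the 9 remaining genes did not share 1 ratio, and 4 of the 9 were at least 1.5-fold lower in the dTAG-13 library, against 1.48% of 13709 genes, and 0 were as much higher, against 2.61%. Dmrt2 was at 38.3 CPM in untreated and 15.9 CPM in dTAG-13 cells, a log2 ratio of -1.22 (-1.54 to -1.01). Uncx was at 18.6 against 9.84 CPM, a ratio of -0.85 (-1.27 to -0.58). Meox2 was at 19.3 against 10.6 CPM, -0.81 (-1.21 to -0.54). Pax3 was at 114 against 65.4 CPM, -0.79 (-0.93 to -0.66), and was the nearest gene inside the 1.5-fold line. Foxd1 was the nearest outside, at 23.8 against 15.6 CPM, -0.58 (-0.90 to -0.33). Scaling by edgeR or DESeq2 factors, or another random thinning, put 5 of the 9 genes inside the line.

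At the other end stood the Foxc pair, which is expressed in presomitic as well as somitic mesoderm. Foxc2 was at 72.1 CPM in untreated and 71.5 CPM in dTAG-13 Meox1-positive cells, a log2 ratio of -0.01 (-0.15 to 0.13). Foxc1 was at 81.9 against 71.5 CPM, -0.19 (-0.33 to -0.06). Tcf15 lay between, at 350 against 266 CPM, -0.40 (-0.47 to -0.33), and Tbx18, with 90 and 40 UMIs, at 5.89 against 4.19 CPM, -0.41 (-1.07 to 0.06). The level of Meox1 itself, 410 and 409 CPM, is set by the gate. The plot of ratios in all cells and in Meox1-positive cells shows both patterns side by side.

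**Figure D1:**
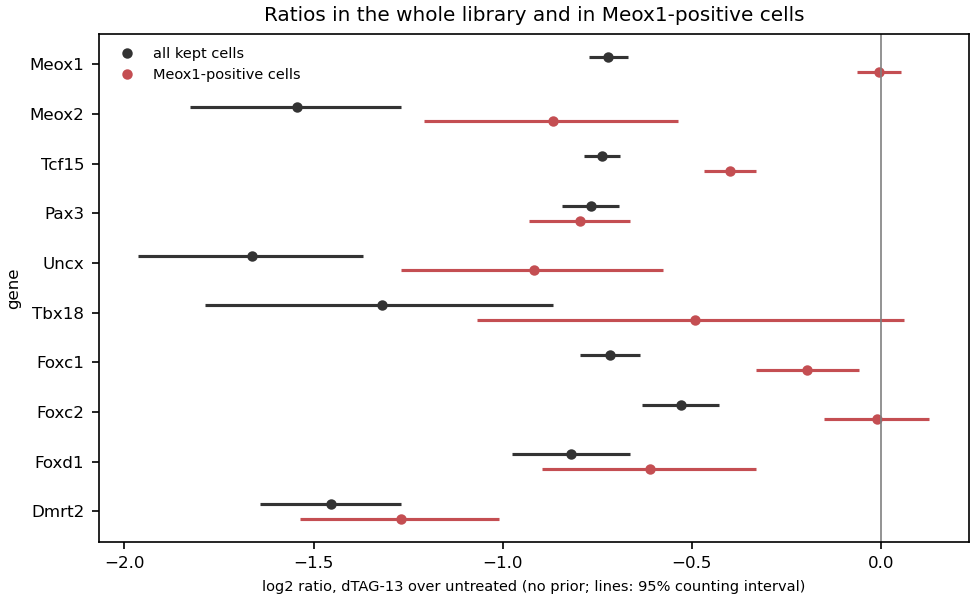
Log2 ratio of dTAG-13 over untreated CPM, without a prior, for each of the 10 genes (rows) in all kept cells (black) and in Meox1-positive cells (red), with lines for the 95% counting interval. All black points lie below 0, while the red points reach from Dmrt2, the lowest, to Foxc2 and Meox1 near 0, of which Meox1 sets the gate.

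Shares of cells after thinning are given beside these levels. Pax3 was detected in 49.4% (45.6 to 53.2) of untreated and 34.5% (29.96 to 39.3) of dTAG-13 Meox1-positive cells, Dmrt2 in 18.5% (15.7 to 21.7) and 10.4% (7.62 to 13.7), and Meox2 in 15.4% (12.8 to 18.4) and 8.70% (6.16 to 11.8). Tcf15 was detected in 78.8% (75.5 to 81.8) and 72.2% (67.6 to 76.5), Foxc1 in 50.4% (46.6 to 54.3) and 46.6% (41.7 to 51.6), and Foxc2 in 41.7% (37.9 to 45.5) and 45.2% (40.3 to 50.1). Uncx was detected in 10.5% (8.32 to 13.1) and 5.80% (3.75 to 8.50), and Foxd1 in 16.5% (13.7 to 19.5) and 10.1% (7.41 to 13.5). For Tbx18, with a level ratio of -0.41, the shares were 5.64% (4.02 to 7.66) and 2.90% (1.51 to 5.01), with intervals that overlap. A Meox1-positive cell held a median of 3 of the other 9 genes in the untreated and 2 in the dTAG-13 library. At least 3 were detected in 59.0% (55.2 to 62.8) of the untreated and 45.9% (41.0 to 50.8) of the dTAG-13 cells. In pluripotent-like cells the thinned shares were 0 to 1.149% for 8 of these 9 genes, and only Tcf15 was common there, with 34.8% and 29.5%.

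Other genes of somite formation, in lists chosen with results of these data known, are given for comparison. Of 21 presomitic and segmentation genes 11 were at least 1.5-fold lower and 0 higher in the whole dTAG-13 library. For all genes these shares were 0.832% lower and 2.32% higher. The median log2 ratio of the 21 genes was -0.64. The 11 lower genes were led by the Notch target Hes5 (-1.79), Tbx6 (-1.44), Wnt3a (-1.23), the Notch ligand Dll1 (-1.22), the clock gene Hes7 (-1.15) and the Notch target Nrarp (-0.96). Hes5 was also a fixed marker of spinal cord-like cells, and Wnt3a of neuromesodermal progenitor-like cells. These made up 5.87% and 11.9% of untreated and 2.02% and 4.64% of dTAG-13 cells. Presomitic mesoderm-like cells made up 7.86% and 3.01%. The part of these shares in the whole-library ratios was not tested. Within Meox1-positive cells 20 of the 21 genes were measured, of which 4 were lower and 2 higher, with a median of -0.08. For all genes the shares there were 1.48% and 2.61%. The 4 were Hes5 (-0.97), Ripply2 (-0.82), which ends the segmentation programme, Nrarp (-0.81) and Dll1 (-0.63), and the 2 were Fgf8 (0.68) and Cyp26a1 (0.84), which is counted in 21 and 31 UMIs. Mesp2, at 22.6 and 20.5 CPM, had a ratio of -0.13 (-0.40 to 0.12) there.

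Genes that are known to work with the 10 factors or to follow them were counted in the same way within Meox1-positive cells, where 1.48% of all genes were lower and 2.61% higher. Of 12 measured genes of later somite derivatives 0 passed the line in either direction, with Twist1 at 127 and 132 CPM and Sim1 at 15.4 and 14.2 CPM. Myod1 and Pax1, the defining genes of muscle and of sclerotome, had under 10 UMIs over both libraries in these cells. Of 18 measured partners and paralogues, 1 was lower, Uncx itself, and 1 higher, Foxf1 with 27 and 32 UMIs. Of 15 measured genes of retinoic acid and somite epithelium 0 passed the line, with Aldh1a2 at 315 and 384 CPM (0.28, 0.22 to 0.35) and the cadherin Cdh11 at 58.6 and 48.5 CPM (-0.27, -0.44 to -0.11). Of 16 polarity partners 2 were lower, Ripply2 and Dll1, and 0 higher.

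Levels along the path from presomitic to somite cells were read from cells with at least 2 Tbx6 UMIs and at most 1 Meox1 UMI, 211 untreated and 55 dTAG-13 cells, to cells with at least 2 Meox1 UMIs and at most 1 Tbx6 UMI, 653 and 409 cells. At least 2 UMIs of both genes were found in 21 untreated and 5 dTAG-13 cells. In each library 8 of the 9 genes other than Meox1 were at least 1.5-fold higher in the Meox1 gate, against 8.16% of genes in untreated and 11.8% in dTAG-13 cells. None was as much lower, against 6.96% and 8.42% of genes. Foxc1, with ratios under the line, was the exception in both libraries.

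In untreated cells the identity factors were low before the switch and high after it. Tcf15 went from 20.4 CPM (16.4 to 25.1) to 355 CPM (345 to 364), and Pax3 from 2.95 CPM (1.57 to 5.04) to 116 CPM (110 to 121). Dmrt2 was counted with 4 UMIs, 0.907 CPM, in the Tbx6 gate and stood at 39.3 CPM (36.1 to 42.6) in the Meox1 gate. Meox2 had 2 UMIs before and 19.7 CPM (17.5 to 22.1) after, with a counting interval of the log2 ratio from 3.58 to 8.49. Foxd1 had 1 UMI before and 24.3 CPM (21.9 to 27.0) after, with an interval of 4.26 to 12.05.

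Both polarity genes were at or near 0 UMIs before the switch. Uncx went from 4 UMIs, 0.907 CPM (0.247 to 2.32), to 18.8 CPM (16.6 to 21.1). Tbx18 had 0 UMIs in the untreated Tbx6 gate and 6.05 CPM (4.87 to 7.44) in the Meox1 gate, at least 8.90-fold higher than the 0.680 CPM that 3 UMIs over the gate would give. The counting interval of the log2 ratio starts lower, at 2.83. In dTAG-13 cells Uncx and Tbx18 both had 0 UMIs before and 9.96 CPM (8.05 to 12.2) and 4.24 CPM (3.03 to 5.77) after, at least 4.57-fold and 1.94-fold higher than 3 UMIs over the gate. The counting intervals of their log2 ratios start at 1.86 and 0.59.

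The Foxc genes were already on in Tbx6-positive cells. Foxc1 went from 56.9 CPM (50.1 to 64.4) to 81.2 CPM (76.7 to 85.9) in untreated cells, a log2 ratio of 0.50 (0.31 to 0.71), and from 64.7 to 70.7 CPM, 0.13 (-0.19 to 0.46), in dTAG-13 cells. The difference was larger for Foxc2, from 14.7 CPM (11.4 to 18.8) to 72.3 CPM (68.0 to 76.8) untreated, 2.22 (1.93 to 2.68), and from 26.9 CPM (18.9 to 37.1) to 70.6 CPM (65.3 to 76.1) with dTAG-13, 1.36 (0.91 to 1.91). Detection in single cells gave the same picture, with Foxc1 in 38.4% and Foxc2 in 8.53% of untreated Tbx6-gate cells.

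In the dTAG-13 library the step of Tcf15, Pax3 and Dmrt2 was smaller. Tcf15 was higher than in untreated cells in the Tbx6 gate, at 88.7 CPM (73.6 to 106), and lower in the Meox1 gate, at 266 CPM (256 to 277). Dmrt2 began at 5.09 CPM (2.05 to 10.5), counted in 7 UMIs against 4, and ended at 16.0 CPM (13.6 to 18.8). Pax3 began at 5.81 CPM (2.51 to 11.5), with an interval that overlaps the untreated one, and ended at 64.9 CPM (59.9 to 70.3). Meox1 in the Tbx6 gate, limited to at most 1 UMI per thinned cell, stood at 8.16 CPM (5.72 to 11.3) in untreated and 42.2 CPM (32.0 to 54.5) in dTAG-13 cells. Aldh1a2 was higher in the same 55 cells, at 288 against 119 CPM, and so was the Zeb2 transcript, at 158 against 68.5 CPM. Of the Tbx6-gate cells 66.8% of untreated and 56.4% of dTAG-13 cells lay in the presomitic mesoderm-like cluster. A Meox1 UMI was left after thinning in 4.74% of untreated and 20% of dTAG-13 Tbx6-gate cells, so these cells differed in make-up between the libraries. Over the whole presomitic mesoderm-like class Tcf15 was lower with dTAG-13, at 31.7 and 24.5 CPM, a ratio of -0.36 (-0.70 to -0.06). Pax3 was lower there too, at 4.78 and 2.23 CPM, and Dmrt2 higher, at 1.53 and 5.35 CPM.

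**Figure D2:**
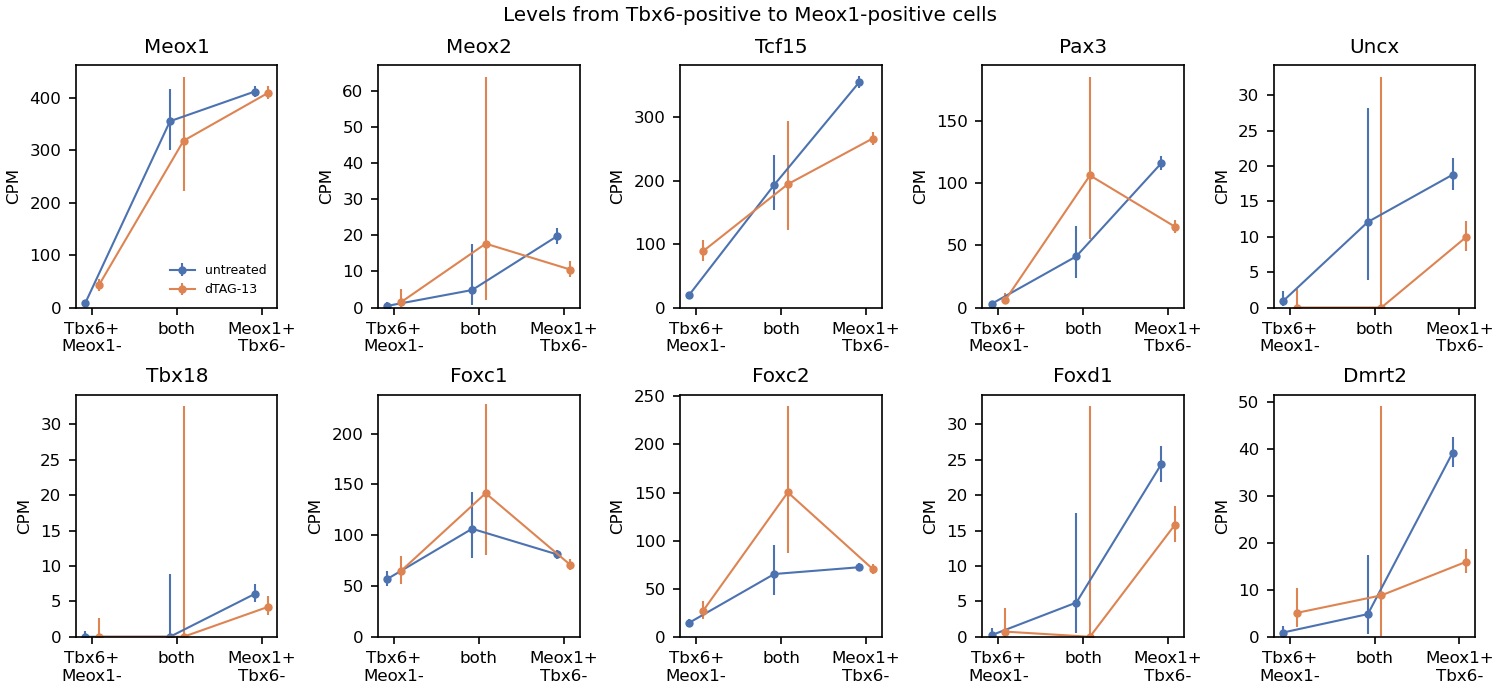
CPM of each gene (1 panel each, own linear axis) in cells with Tbx6 but not Meox1, with both, and with Meox1 but not Tbx6, for untreated (blue) and dTAG-13 (orange) cells, with 95% Poisson intervals. In dTAG-13 cells Tcf15 and Dmrt2 are higher in the first gate, which rests on 211 and 55 cells, and lower in the last. Foxc1 is already high in the first gate. The middle point rests on 21 and 5 cells, so its intervals are wide.

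Among Meox1-positive cells a split by Mesp2, the gene of the forming boundary, was added after seeing the data. In the 72 untreated cells with a Mesp2 UMI after thinning, Foxc2 stood at 161 CPM (141 to 182) against 62.5 CPM (58.4 to 66.8) in the 602 cells without, and Foxc1 at 143 CPM (125 to 164) against 75.2 CPM (70.7 to 79.9). The 41 dTAG-13 cells with Mesp2 gave 139 against 64.4 CPM for Foxc2 and 136 against 64.6 CPM for Foxc1. Foxd1 went the other way, at 8.03 CPM (4.15 to 14.02) against 25.5 CPM (22.9 to 28.3) in untreated and 6.55 against 16.6 CPM in dTAG-13 cells. Dmrt2 did too, at 24.7 against 39.8 CPM and at 3.27 against 17.3 CPM, the last from 3 UMIs. Tcf15 was at 407 against 344 CPM in untreated and 409 against 250 CPM in dTAG-13 cells, so that Mesp2-positive cells of both libraries held nearly the same Tcf15 level.

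Uncx and Tbx18 were not detected in the same cell at the depth of 10000 UMIs. Of the untreated Meox1-positive cells 71 held Uncx, 38 held Tbx18 and 0 held both, where the product of both shares gives 4.00 cells. A count of 0 among 71 cells allows a share of up to 4.23% (3 cells), and its Clopper-Pearson interval reaches 5.06%. Tbx18 was detected in 6.30% (4.50 to 8.55) of the 603 cells without Uncx, so the intervals overlap. In the dTAG-13 library 24 cells held Uncx, 12 held Tbx18 and 0 held both, where 0.696 would be expected, so an exclusion was not detectable there at this depth. Over all thinned cells the counts of Uncx were 97 and 34, those of Tbx18 56 and 21, and 0 cells held both. Only 0.911 and 0.112 cells would be expected there, so an exclusion was not detectable over all cells. In the pluripotent-like class neither gene was detected in a thinned cell.

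When every UMI was used, some untreated cells held both genes. Of the 674 untreated cells 104 then held Uncx and 63 Tbx18, and 3 held both, against 9.72 expected. The share of Uncx-positive cells with Tbx18 was 2.88% (0.599 to 8.20), against 10.5% (8.13 to 13.3) in cells without Uncx, so the intervals just overlap. In dTAG-13 cells 37 held Uncx, 25 Tbx18 and 0 both, against 2.23 expected, and Tbx18 was found in 6.63% (4.34 to 9.63) of the cells without Uncx. The interval of 0 in 37 cells reaches 9.49%, above that share, so an exclusion was not detectable there with all UMIs either. With another random thinning, added after seeing the data, or without the removal of doublets 1 untreated cell held both.

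Co-detection with this pair differed between the other genes. Foxd1 was detected in 40.8% (29.3 to 53.2) of untreated Uncx-positive cells and in 13.6% (10.96 to 16.6) of the others, so that 29 cells held both against 11.7 expected, which is 2.48 times that number. In dTAG-13 cells 10 held both against 2.43 expected, 41.7% (22.1 to 63.4) against 8.21% (5.68 to 11.4). This dTAG-13 ratio, 4.11, was 2.56 with another random thinning. Of Tbx18-positive cells 4 of 38 and 1 of 12 held Foxd1, or 0.639 and 0.821 times the expected numbers. With all UMIs the pair was not below expectation, with 19 cells against 16.2 and 4 against 3.93. Dmrt2 was found with Uncx at 1.59 and 2.41 times the expected number, in 21 and 6 cells, and with Foxd1 1.65 and 2.98 times, in 34 and 13 cells. With all UMIs the dTAG-13 ratio of Foxd1 with Dmrt2 was 1.93. Dmrt2 and Tbx18 were found together in 12 untreated cells against 7.05 expected, and in 0 dTAG-13 cells against 1.25. With all UMIs they were together in 24 cells against 18.8 and in 5 against 3.99, so the absence in dTAG-13 cells did not hold.

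Identity genes accompanied both sides. Pax3 was detected in 69.0% of untreated Uncx-positive and 71.1% of Tbx18-positive cells, against 49.4% of all Meox1-positive cells. In dTAG-13 cells it was in 62.5% and 83.3%, against 34.5%. Tcf15 was detected in 92.96% of untreated Uncx-positive and 89.5% of Tbx18-positive cells. Meox2 and Pax3 were found together at 1.54 and 1.61 times the expected number, in 79 and 20 cells. The Foxc genes were nearer to the expected numbers, with Foxc1 and Foxc2 together in 163 untreated cells against 141.8 expected and in 96 dTAG-13 cells against 87.2. Foxc1 and Pax3 were together in 161 cells against 168 and in 67 against 66.7. The plot of co-detection gives all pairs without Meox1.

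**Figure D3:**
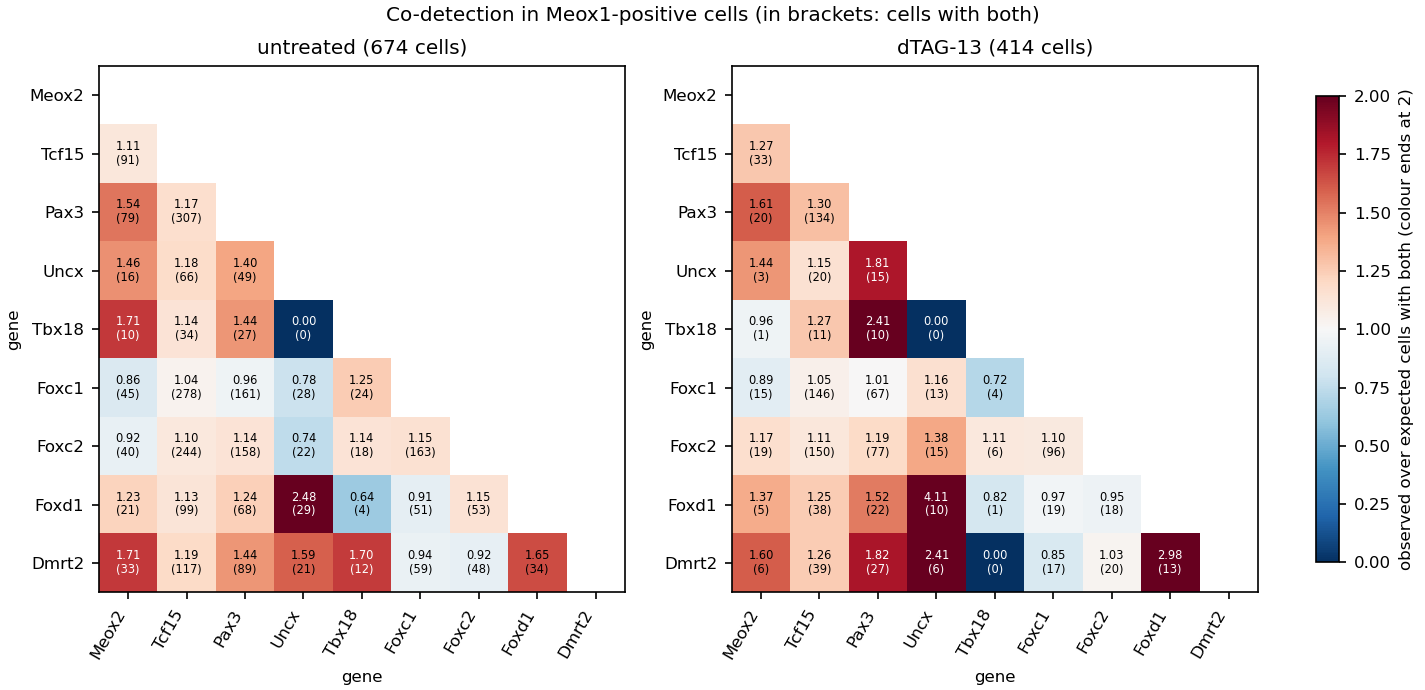
Cells with both genes of a pair over the number expected from the product of the shares, in thinned Meox1-positive cells of each library, with the number of cells with both in brackets. Uncx with Tbx18 is at 0 in both libraries and Uncx with Foxd1 is the highest pair in both, at 2.48 and 4.11.

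To describe the 2 sides further, Meox1-positive cells with Uncx but not Tbx18 (71 untreated, 24 dTAG-13) were set against cells with Tbx18 but not Uncx (38 and 12), with a prior of 5 CPM in these ratios. Foxd1 was at 70.8 against 22.7 CPM in untreated and 63.3 against 28.0 CPM in dTAG-13 cells, log2 ratios of 1.45 and 1.05. Dmrt2 was at 98.8 against 45.3 CPM and 56.4 against 12.4 CPM, 1.04 and 1.82. Pax3, at -0.23 and 0.05, and Meox1, at -0.03 and 0.26, had intervals that included 0. Tcf15 was at 0.32 (0.14 to 0.51) and 0.35, with an interval that just included 0 in dTAG-13 cells. Foxc2 was at -0.45 and -0.43, with intervals that reached past 0, and Foxc1 at -0.55 (-0.998 to -0.16) and 0.09 (-0.71 to 0.96).

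Genes known for somite polarity were found on both sides. On the Uncx side stood the ephrin ligand Efnb2, with ratios of 0.92 (0.37 to 1.74) and 1.69 (0.54 to 4.01), and Dll1 and the Notch target Hey1, with 0.96 (0.24 to 2.28) and 1.08 (0.43 to 2.28) in untreated cells. In dTAG-13 cells Dll1 and Hey1 each had 8 UMIs on the Uncx side and 2 on the Tbx18 side, and their intervals included 0. On the Tbx18 side stood the ephrin receptor Epha4, at -0.62 (-1.54 to 0.06) and -2.12 (-3.72 to -1.32), and the semaphorin receptor Nrp2, at -0.64 (-1.16 to -0.20) and -0.93 (-1.71 to -0.26). Cer1 differed in direction, with -0.24 (-1.29 to 0.72) and 1.74 (0.48 to 4.57). Mesp2 had 26 UMIs in Uncx cells and 2 in Tbx18 cells of the untreated library, at 1.47 (0.66 to 5.77). In the dTAG-13 library it had 2 and 1, at 0.05 (-4.13 to 6.02). Tenm4 was at 0.73 (0.32 to 1.24) and 0.15 (-0.49 to 0.84). In untreated cells Pcdh8 was at -0.96 (-2.59 to -0.17) and Ripply2, with 1 and 6 UMIs, at -1.16 (-9.15 to -0.59). In dTAG-13 cells both had 0 and 3 UMIs, and their intervals included 0. All other genes of the list had intervals that included 0 in both libraries.

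**Figure D4:**
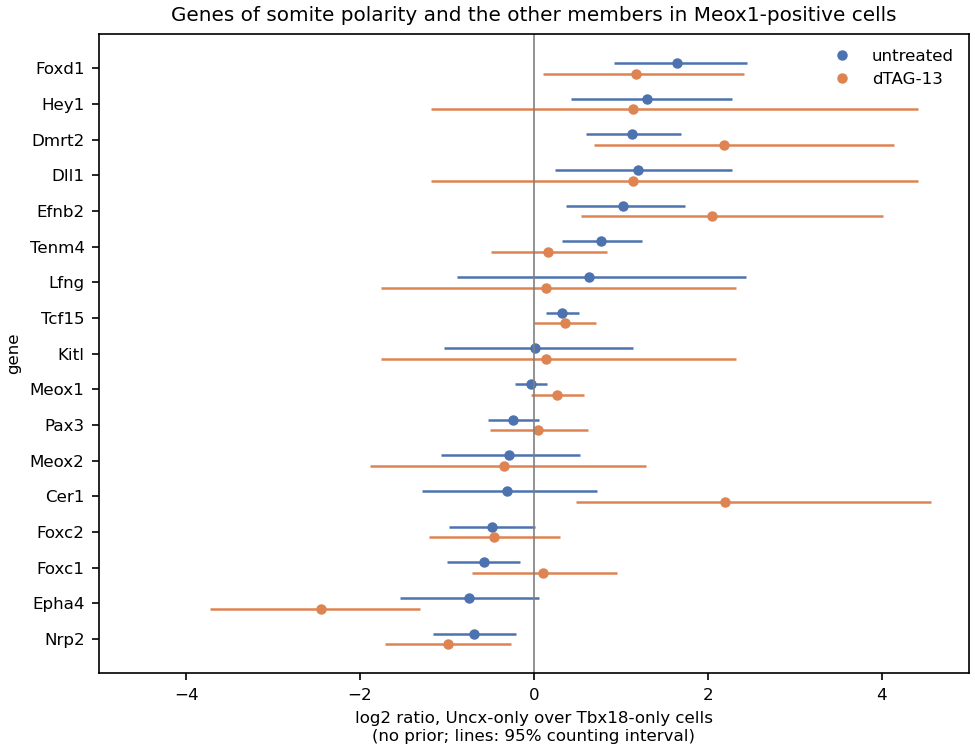
Log2 ratio, without a prior, of CPM in Uncx-only over Tbx18-only cells among Meox1-positive cells for 9 genes of somite polarity and the 8 other transcription factors, untreated (blue) and dTAG-13 (orange), with lines for the 95% counting interval. Foxd1, Dmrt2 and Efnb2 lie right of 0 and Nrp2 lies left of 0 with both intervals, while most dTAG-13 intervals are wide because they rest on 24 and 12 cells.

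Over all genes, 10 of 2802 with at least 50 UMIs over both sides in each library (0.357%) were at least 1.5-fold higher on the Uncx side in both libraries, Uncx itself among them, and 4 (0.143%), Nrp2 of the polarity list among them, on the Tbx18 side. The glucose transporters Slc2a3, at 1.26 and 3.04, and Slc2a1, at 0.94 and 0.96, led the Uncx side, followed by the Groucho corepressor Tle4, the LIM homeobox gene Lhx1, the Hoxa-cluster RNA Hotairm1, Rps6ka3, Slc9a3r1, Hoxb4 and Hspa13. The retinol dehydrogenase Rdh10, at 0.55 and 0.84, was next and under the line in untreated cells. The intervals of Lhx1 and Rdh10 in untreated cells and of Rps6ka3, Hoxb4 and Hspa13 in dTAG-13 cells included 0. Hotairm1 and Hoxb4 lie in Hox clusters, where overlapping transcripts may share counts. The Tbx18 side was led by the proteoglycan Vcan, at -0.85 and -1.17, the imprinted RNA H19, at -0.69 and -1.46, the imprinted gene Peg3, at -0.76 and -0.64, and Nrp2. Dact1, Iqgap1, Exoc4, Zeb2, Ilkap and Lgalsl came next but were not past the line in both libraries. Zeb2 was at -0.59 (-1.05 to -0.20) and -0.45 (-1.21 to 0.25). The cells of a side come from 1 library each and are no replicates, so these genes are a description.

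Across all cell classes the 10 genes fell into groups by where else they were found. Meox2, Uncx and Tbx18 were high in the somite-like and anterior presomitic mesoderm-like classes, and their highest level in any other class was 1.34 CPM, for Uncx in untreated presomitic mesoderm-like cells. Meox2 was at 17.6 CPM (15.6 to 19.9) in untreated and 6.45 CPM (5.08 to 8.09) in dTAG-13 somite-like cells, a log2 ratio of -1.32 (-1.84 to -1.08), and at 14.9 and 11.7 CPM in anterior presomitic mesoderm-like cells, -0.32 (-0.82 to 0.12). Uncx was at 17.4 and 8.86 CPM in somite-like and 8.26 and 3.53 CPM in anterior presomitic mesoderm-like cells. Tbx18 was at 5.75 and 3.36 CPM, and at 5.37 and 2.41 CPM. Dmrt2 was highest in the same classes, at 30.8 and 12.5 CPM and at 37.2 and 15.2 CPM, with ratios of -1.24 and -1.23. It was also at 6.31 and 4.14 CPM in notochord-like cells, and in presomitic mesoderm-like cells it was higher with dTAG-13, at 5.35 against 1.53 CPM, a ratio of 1.33 (0.83 to 2.82) from 24 and 16 UMIs.

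Pax3 differed in direction between classes. In somite-like cells it was at 99.8 CPM (94.8 to 105) in untreated and 55.9 CPM (51.6 to 60.3) in dTAG-13 cells, and in anterior presomitic mesoderm-like cells at 91.1 CPM (84.3 to 98.3) and 42.7 CPM (37.3 to 48.6), a ratio of -1.08. In spinal cord-like cells it was higher with dTAG-13, at 154 CPM (140 to 170) against 86.3 CPM (80.4 to 92.5), a ratio of 0.83 (0.66 to 1.01). It was also higher in neuromesodermal progenitor-like cells, at 14.7 against 4.34 CPM, and in the unnamed cluster 0, at 19.8 against 7.52 CPM. Cluster 0 held 1491 untreated and 428 dTAG-13 cells. The neural genes Pax6 and Zic1 share the spinal cord with Pax3. Over whole libraries they were lower with dTAG-13, with ratios of -0.95 and -1.002, and the crest gene Tfap2a was higher, with 0.82. These are ratios of sums over all cells, where Pax3 was lower too, at -0.73, and not levels within a class. Spinal cord-like cells were 5.87% of the untreated and 2.02% of the dTAG-13 cells.

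Tcf15 was also found outside the mesoderm. In pluripotent-like cells it was at 51.6 CPM (47.2 to 56.4) in untreated and 36.5 CPM (33.3 to 39.9) in dTAG-13 cells, and in cluster 11, unnamed but nearest to the pluripotent markers, at 130 CPM (120 to 141) and 62.4 CPM (58.0 to 67.1). Tcf15 is known in embryonic stem cells that are primed to differentiate. In anterior presomitic mesoderm-like cells it was level, at 332 CPM (319 to 346) and 326 CPM (310 to 341), and in somite-like cells lower with dTAG-13, at 302 CPM (294 to 311) and 190 CPM (182 to 198), a ratio of -0.67 (-0.74 to -0.60).

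Foxd1 was highest in notochord-like cells, at 53.2 CPM (46.0 to 61.2) and 31.9 CPM (27.9 to 36.3), ahead of somite-like cells at 27.6 CPM (25.0 to 30.3) and 15.1 CPM (12.99 to 17.6), with ratios of -0.72 (-1.02 to -0.45) and -0.82 (-1.13 to -0.61). Foxc1 and Foxc2 peaked in anterior presomitic mesoderm-like cells, at 112 and 112 CPM and at 105 and 103 CPM. They were also present in epiblast and primitive streak-like cells, Foxc1 at 41.0 and 50.9 CPM and Foxc2 at 29.6 and 41.8 CPM, and in the few endothelium-like cells, Foxc1 at 16.3 and 12.1 CPM. Meox1 was at 317 and 269 CPM in somite-like cells and 266 and 230 CPM in anterior presomitic mesoderm-like cells. In presomitic mesoderm-like cells it was at 36.8 CPM (33.2 to 40.7) in untreated and 46.8 CPM (40.7 to 53.6) in dTAG-13 cells, a ratio of 0.34 (0.10 to 0.59).

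**Figure D5:**
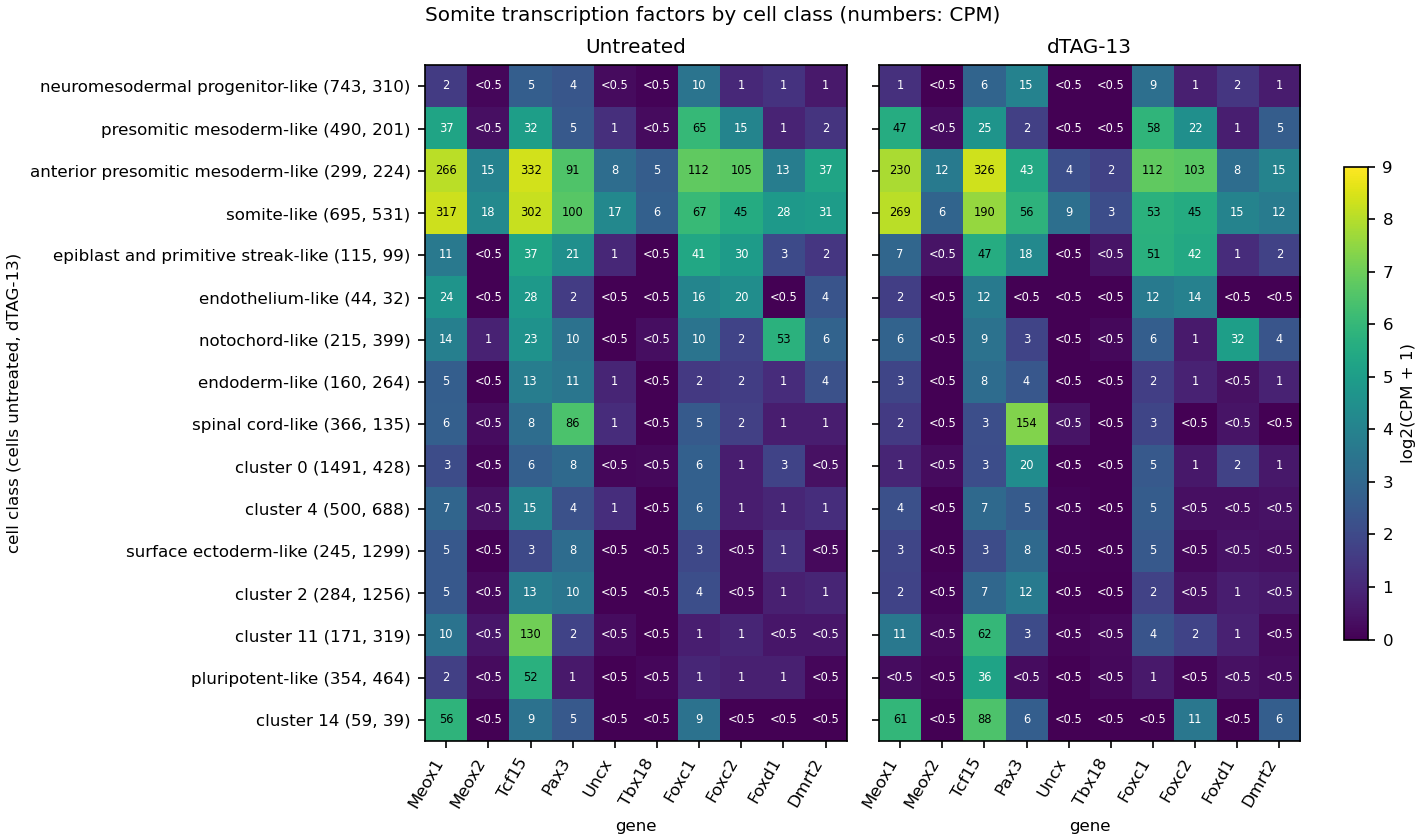
CPM of the 10 genes (columns) in each of 16 cell classes (rows, with cells in the untreated and dTAG-13 library), coloured by log2(CPM + 1), left untreated and right dTAG-13. The somite-like and anterior presomitic mesoderm-like rows hold the highest values of most genes, while Pax3 stands out in spinal cord-like, Foxd1 in notochord-like and Tcf15 in pluripotent-like cells and cluster 11. Cluster 14 has a median of only 2887 UMIs per cell. Its Meox1 values rest on 12 and 11 UMIs and its Tcf15 values on 2 and 16 UMIs.

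Patterns alike to each gene were sought over 32 units (16 clusters in 2 libraries, of at least 30 cells each) among 8066 genes that reached 20 CPM in at least 1 unit. These correlations of log2(CPM + 1) are descriptions, since units share libraries and a few mesoderm clusters carry them. Meox1 was most like Prrx2 (Pearson r = 0.870), Dmrt2 (0.830) and Aldh1a2 (0.805). Among the genes most like Tcf15 were Col26a1 (0.811) and Meox1 (0.773). Foxc1 was most like Snai1 (0.928), and Foxc2 like Col26a1 (0.916), Aldh1a2 (0.903) and Ptgds (0.902). Pax3 was most like Boc (0.842), a Hedgehog coreceptor, and Foxd1 like Bicc1 (0.745). Among the compared genes, Meox2 and Tbx18 were most like Dmrt2 (0.825 and 0.820), and Uncx (0.791) and Dmrt2 (0.841) like Col26a1. Meox2, Uncx and Tbx18 stayed under 20 CPM in every unit, so they were not themselves among the compared genes. Uncx and Tbx18, rarely or never found in the same cell, had nearly the same pattern over clusters, with r = 0.909, and Meox2 and Tbx18 had the closest of the 45 pairs of the 10 genes, with r = 0.977.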

How the data were processed

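The authors deposited, for 1 untreated and 1 dTAG-13 library, UMI counts per gene and cell barcode, whole numbers without normalization. Per the submitters' processing notes they were made with Cell Ranger 6.1.2 and mm10. No source used here says if strand was used in counting, so it is not known here if reads of overlapping genes were told apart. Positions came from GENCODE M21, promoters from RefSeq.

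Of 7276 and 7873 barcodes, 630 and 693 failed the filters on genes and mitochondrial UMIs. Scrublet in scanpy 1.11.5 marked 1 and 0 doublets by its automatic threshold, which has not worked, so the highest scores were removed at 0.8% per 1000 barcodes (424 and 496). Cells were clustered jointly without the 10 genes (2000 variable genes, 30 components, 15 neighbours, Leiden in leidenalg 0.10.2 at resolution 1) and named "-like" from fixed markers. The surface ectoderm-like name rests on 3 markers and a mean score of 1.00, at the limit. Clusters 0, 2, 4, 11 and 14 stayed unnamed.

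With 1 library per group no test was made. Named were all 10 genes, up to 6 genes per list by ratio, the 3 genes most alike in pattern and the 10 leading genes on either polarity side. A gene that this rule names is not reported here. The members and lists were chosen with earlier results of these data known. Alternatives were edgeR 4.0.16 and DESeq2 1.42.0 scaling (on the counts, without their tests), another prior, filter, gate, thinning and doublet setting, and the gate within named clusters. Ratios and intervals were computed with scipy 1.17.1 and tested on simulated data.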

Additional observations from a re-analysis of the deposited data

Results flagged for a closer look

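The ratio of dTAG-13 over untreated had an interval wholly above 0 in at least 1 cell class and wholly below 0 in another for 3 genes, among classes with at least 100 cells in each library and at least 50 UMIs of the gene over both libraries. The difference between classes was not tested, since each class has 1 library per group. Pax3 had a log2 ratio of 1.56 in neuromesodermal progenitor-like cells, 1.29 in cluster 0 and 0.83 in spinal cord-like cells, but -0.83 in somite-like, -1.08 in anterior presomitic mesoderm-like, -0.84 in presomitic mesoderm-like, -1.09 in endoderm-like and -1.55 in notochord-like cells. The last 3 ratios rest on 50 and 10, 35 and 27, and 35 and 19 UMIs. Pax3 stood there at 4.78, 10.7 and 9.59 CPM in untreated cells, against 99.8 CPM in somite-like cells. It was also low in untreated neuromesodermal progenitor-like cells and cluster 0, at 4.34 and 7.52 CPM. Meox1 had such an interval above 0 in presomitic mesoderm-like cells, at 0.34. It was lower in somite-like (-0.24), anterior presomitic mesoderm-like (-0.21), notochord-like (-1.03), spinal cord-like (-1.19) and surface ectoderm-like cells (-0.60) and in clusters 0 (-1.16), 2 (-0.69) and 4 (-0.74). In those last 6 classes Meox1 stood at 3.27 to 13.7 CPM in untreated cells, against 317 CPM in somite-like cells. Foxc1 was higher in cluster 11, at 1.58, counted in 3 and 47 UMIs, and lower in notochord-like (-0.77) and somite-like cells (-0.33).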

How the results depend on the processing

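The share of Meox1-positive cells was 4.83 percentage points lower in the dTAG-13 library (a difference of -4.83). The difference was -2.84 points when cells were thinned to 5000 UMIs and -3.50 points with a gate of at least 3 UMIs, both with fewer cells past the gate in each library. The count of genes at least 1.5-fold lower in the whole library was 4 instead of 8 with a prior of 5 CPM, which shrinks the ratios of low genes. All 52 other alternative values of the main results stayed within their limits. Within Meox1-positive cells 4 to 6 of 9 genes were lower, and along the path 8 to 9 of 9 were higher. The share of untreated Uncx-positive cells with Tbx18 ran from 0 to 2.88%. Of the alternative values of single genes and pairs 139 stayed within their limits and 17 moved, 9 of these with the prior of 5 CPM. These limits were set by the width of the main counting interval for ratios and at 1.5-fold for pairs. The Foxc2 ratio within Meox1-positive cells, -0.01, lay between 0.01 and 0.07 in 4 alternatives, so it has no direction. No paired analysis was possible because each group has 1 library. Depth limits the pair of Uncx and Tbx18: the interval of 0 in 71 untreated cells reaches 5.06%, and that of 1 in 72 with another thinning 7.50%, both overlapping the share in cells without Uncx.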
